A study of Homo sapiens with 4 samples.

Results

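Imprinted genes are expressed mainly or only from the copy inherited from 1 parent, because methylation set in the egg or the sperm at control regions is kept in the cells of the embryo. The genes lie in clusters, in which a noncoding RNA is often made from one parental copy and protein-coding genes from the other. Many act on growth of the fetus and placenta, and several are high in progenitor cells of the embryo and low in adult tissue. The 9 imprinted genes described here are H19, MEG3, DLK1, PEG3, PEG10, MEST, PLAGL1, GRB10 and NNAT. They were found by symbol in an RNA-seq table of 58365 rows, with 1 row for each symbol. As background, 6 of the 9 are expressed from the paternal copy (DLK1, PEG3, PEG10, MEST, PLAGL1 and NNAT) and 2 from the maternal copy (H19 and MEG3), and the copy used for GRB10 depends on the tissue. The values carry no information on the allele, so whether a gene was imprinted in these cells was not measured.

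The libraries came from H1 cells, a line of human embryonic stem cells (hESCs) in wide use, at day 8 of hematopoietic differentiation. Both groups had 2 days of activinA (40 ng/ml) with BMP4 (50 ng/ml), then 3 days of VEGF (40 ng/ml) with bFGF (50 ng/ml), then 3 further days of VEGF with bFGF. For 2 libraries the cells had the solvent (DMSO) in those last 3 days, and for the other 2 they had SB431542 (SB), an inhibitor of the TGFβ type I receptors. The labels give replicate numbers 1 and 2 in each group. The study describes collecting CD31+ cells, a step that the sample labels do not give. The labels do not say that replicates were separate cultures. The study's general statement on independent experiments gives another number than the 2 libraries a group here, so it was not applied to them, and p-values measure only the spread between these libraries, which may be technical. The unit is FPKM, the number of sequenced fragments scaled to transcript length and to the mapped fragments of the library, so that levels are per length and can be set side by side between genes.

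The endothelial gene for CD31, PECAM1, had 153 to 197 FPKM over the 4 libraries, and the leukocyte gene PTPRC reached at most 0.202 FPKM. Of 8 hematopoietic markers, PTPRC was the only 1 under 1 FPKM in all libraries. SPN had 31.6 to 66.8 FPKM, RUNX1 33.6 to 69.8 FPKM and GATA1 40.9 to 63.0 FPKM. Each library summed to between 570844 and 612614 FPKM, and 14183 to 14372 of its rows reached 1 FPKM. In a principal component analysis, the first component (47.4% of the variance) separated the replicate numbers and the second (38.7%) separated the treatments. For that reason differences are also shown separately for replicates 1 and 2. Because these are bulk samples, fewer cells of a type and less RNA per cell cannot be told apart in any value below.

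The 9 genes fell into a group of 6 with clear expression and a group of 3 at or near 0. In order of mean FPKM over the 4 libraries they were DLK1 (110.0), MEST (79.5), PLAGL1 (70.1), GRB10 (35.0), NNAT (27.7), PEG10 (13.2), MEG3 (0.267), H19 (0.0451) and PEG3 (0). The ranges over libraries were apart between PLAGL1 and GRB10, between NNAT and PEG10 and between PEG10 and MEG3. The other neighbours in this order overlapped. With SB, DLK1 was listed above both DMSO libraries and PEG10 below both.

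**Figure D1:**
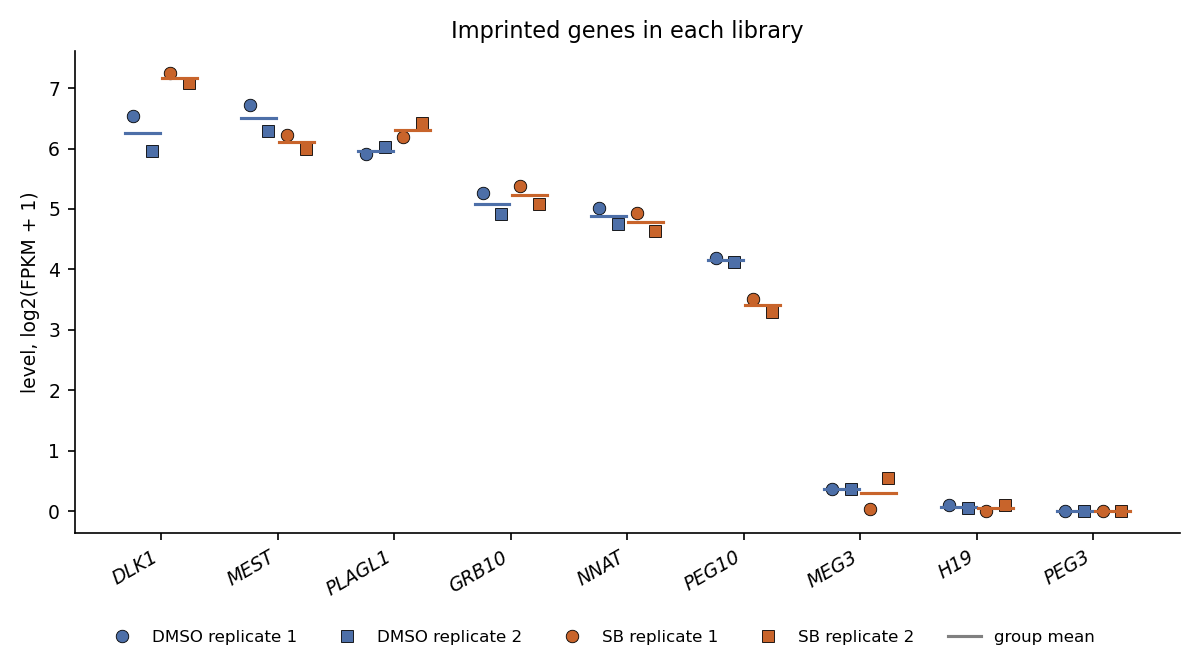
The level of each of the 9 imprinted genes, as log2(FPKM + 1) on the vertical axis, in the 2 DMSO (blue) and 2 SB (orange) libraries, with replicate 1 as a circle, replicate 2 as a square and the group mean as a line. DLK1 and PLAGL1 are higher in both SB libraries, PEG10 and MEST are lower in both, and MEG3, H19 and PEG3 lie at or near 0.

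Sequences from RefSeq (GRCh38.p14) covering 250 bases before to 50 bases after a transcript start were matched for 5 of the 9 genes (H19, MEG3, MEST, PLAGL1 and GRB10), with 19 windows in all. The windows below set 2 genes that were clearly expressed, MEST and PLAGL1, beside 2 noncoding genes near 0, MEG3 and H19. Where a gene had several windows, the one shown was chosen after its values were seen. Capitals mark CpG dinucleotides, the sites that DNA methylation uses. The windows are MEST at chr7:130491835-130492134 (plus strand), PLAGL1 at chr6:144008210-144008509 (minus strand), MEG3 at chr14:100825858-100826157 (plus strand) and H19 at chr11:2001217-2001516 (minus strand), each written 5′ to 3′.
MEST: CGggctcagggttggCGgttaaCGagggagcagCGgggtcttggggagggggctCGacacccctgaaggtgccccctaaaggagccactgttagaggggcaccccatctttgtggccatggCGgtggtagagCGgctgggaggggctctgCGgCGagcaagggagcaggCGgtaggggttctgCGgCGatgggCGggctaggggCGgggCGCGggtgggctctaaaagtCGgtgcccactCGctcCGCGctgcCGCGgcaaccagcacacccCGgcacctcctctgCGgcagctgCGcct
PLAGL1: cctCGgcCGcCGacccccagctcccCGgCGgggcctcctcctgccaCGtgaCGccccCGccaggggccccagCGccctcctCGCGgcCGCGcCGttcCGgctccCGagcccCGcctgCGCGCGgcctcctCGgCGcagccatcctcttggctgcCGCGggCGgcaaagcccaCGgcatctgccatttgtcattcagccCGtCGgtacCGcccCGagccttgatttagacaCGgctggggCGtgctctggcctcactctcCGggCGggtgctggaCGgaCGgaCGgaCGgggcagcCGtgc
MEG3: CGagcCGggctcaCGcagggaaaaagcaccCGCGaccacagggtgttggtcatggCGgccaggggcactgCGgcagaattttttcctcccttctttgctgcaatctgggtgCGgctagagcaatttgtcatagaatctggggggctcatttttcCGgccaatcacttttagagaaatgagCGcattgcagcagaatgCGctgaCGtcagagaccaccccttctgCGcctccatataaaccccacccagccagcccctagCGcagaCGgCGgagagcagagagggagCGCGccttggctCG
H19: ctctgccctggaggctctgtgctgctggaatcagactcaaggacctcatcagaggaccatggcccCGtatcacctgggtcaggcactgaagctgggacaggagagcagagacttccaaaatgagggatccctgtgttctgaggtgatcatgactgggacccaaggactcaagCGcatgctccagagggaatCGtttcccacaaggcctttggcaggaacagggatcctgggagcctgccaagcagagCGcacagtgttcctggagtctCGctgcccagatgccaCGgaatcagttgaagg

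The PLAGL1 window held 39 CpG, and 8.71% of all 34943 promoter windows held at least as many. The MEST window held 25 (31.9% of windows held at least as many), the MEG3 window 19 (42.8%) and the H19 window 6 (66.2%), against a median of 14 over all windows. The PLAGL1 and MEST windows shown are the richest in CpG of 5 for each gene. The others held 31, 3, 3 and 2 for PLAGL1 and 22, 22, 16 and 13 for MEST, and the other MEG3 windows held 17 and 18. The windows of GRB10, also clearly expressed, are not printed and held 44, 49, 24, 3 and 4. Some windows of the expressed genes thus held fewer CpG than those of MEG3. Methylation was not measured.

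Motifs were searched on both strands. The SMAD motif CAGACA, which transcription factors of the TGFβ pathway bind, is in 16.9% of all windows and in 3 of the 19 windows of these genes (1 of MEST and 2 of GRB10). The palindromic SMAD motif GTCTAGAC (0.203% of all windows) and the YY1 motif AAGATGGC (2.89%) are in 0 of the 19. The motif GGGGCCCC, bound by the PLAGL1 protein, is in 1.95% of all windows and in 1 of the 19, the PLAGL1 window printed, which also overlaps HYMAI. GGNGGCAG, a part of the CTCF motif, is in 16.6% of all windows and in 5 of the 19 (2 of MEST and 3 of GRB10). A match is a description of the letters only.

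DLK1 encodes a membrane protein related to the Notch ligands that is high in fetal progenitors and in fetal liver. The gene (ENSG00000185559.13, chr14:100725705-100738224, plus strand) was listed at 91.8 and 61.6 FPKM in DMSO replicates 1 and 2 and at 152 and 135 FPKM in SB replicates 1 and 2. Both SB libraries were above both DMSO libraries. By level, DLK1 ranked 980 and 1402 among the 58365 rows with DMSO and 536 and 561 with SB. The mean was 76.7 ± 21.4 FPKM (SD, n = 2) with DMSO and 143 ± 12.01 FPKM (SD, n = 2) with SB, a ratio of 1.87. The log2 fold change of FPKM + 1 was 0.92 (SE 0.24, 95% interval 0.29 to 1.55), with a limma p of 0.0136 and an adjusted p of 0.318. It was 0.72 within replicate 1 and 1.12 within replicate 2, and the 2 DMSO libraries differed from each other by 0.57.

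PEG10, derived from a retrotransposon, encodes Gag-like and Pol-like proteins and is needed for the placenta. The gene (ENSG00000242265.5, chr7:94656325-94669695, plus strand) stood at 17.3 and 16.5 FPKM with DMSO and at 10.4 and 8.83 FPKM with SB. Both SB libraries were below both DMSO libraries, and the libraries of a group lay close together. The mean was 16.9 ± 0.551 FPKM (SD, n = 2) with DMSO and 9.63 ± 1.12 FPKM (SD, n = 2) with SB. The log2 fold change was -0.75 (SE 0.17, 95% interval -1.20 to -0.31), with a limma p of 0.00761 and an adjusted p of 0.263. It was -0.68 within replicate 1 and -0.83 within replicate 2.

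PLAGL1, a zinc finger transcription factor that restrains proliferation, was at 59.1 and 64.2 FPKM with DMSO and at 72.5 and 84.6 FPKM with SB (ENSG00000118495.18, chr6:143940300-144064599, minus strand). The SB libraries were again both higher. For PLAGL1 the log2 fold change was 0.34 (SE 0.17, 95% interval -0.10 to 0.79), with a limma adjusted p of 0.647, and it was 0.29 and 0.39 within replicates 1 and 2. The noncoding HYMAI, which overlaps PLAGL1, was at 0.215, 0.265, 0.333 and 0.341 FPKM in the same order of libraries and was not tested.

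MEST encodes a hydrolase-like protein of mesodermal tissue. It was at 104.8 and 76.9 FPKM with DMSO and at 73.9 and 62.6 FPKM with SB (ENSG00000106484.14, chr7:130486171-130506296, plus strand). The SB libraries were both below the DMSO libraries, with only a narrow gap between DMSO replicate 2 and SB replicate 1. MEST had a log2 fold change of -0.40 (SE 0.22, 95% interval -0.97 to 0.18), with a limma adjusted p of 0.698. The 2 DMSO libraries differed by 0.44, more than the groups did. COPG2, which overlaps the end of MEST on the other strand, was at 12.03, 16.6, 13.6 and 17.5 FPKM. MESTIT1_2, a row within MEST, was at 2.68 FPKM in SB replicate 2 and at 0 in the other 3 libraries. No source says whether reads were counted by strand, so the values of MEST and these partners are uncertain.

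GRB10 encodes an adaptor that dampens signaling from the insulin and IGF receptors. It was at 37.3 and 29.2 FPKM with DMSO and at 40.7 and 32.8 FPKM with SB (ENSG00000106070.17, chr7:50590063-50793462, minus strand). The groups overlapped, and in each group replicate 1 was the higher. GRB10 had a log2 fold change of 0.14 (SE 0.21, 95% interval -0.41 to 0.70), with a limma adjusted p of 0.922. Its sign turned when DMSO replicate 2 (-0.0276) or SB replicate 1 (-0.0070) was left out.

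NNAT encodes a small membrane protein of neural and endocrine cells. It was at 31.4 and 25.9 FPKM with DMSO and at 29.7 and 23.98 FPKM with SB (ENSG00000053438.8, chr20:37521215-37523693, plus strand). Replicate 1 was again the higher in each group, and the groups overlapped. The log2 fold change was -0.09 (SE 0.20, 95% interval -0.61 to 0.43), with a limma adjusted p of 0.959. Leaving out DMSO replicate 1 (0.0423) or SB replicate 2 (0.0572) turned the sign for NNAT too. NNAT lies within BLCAP, which was at 45.8, 45.1, 44.9 and 45.1 FPKM. For GRB10 and NNAT the difference between replicate numbers was larger than that between treatments: 0.34 and 0.30 for GRB10 and 0.27 and 0.30 for NNAT, in the DMSO and the SB libraries.

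**Figure D2:**
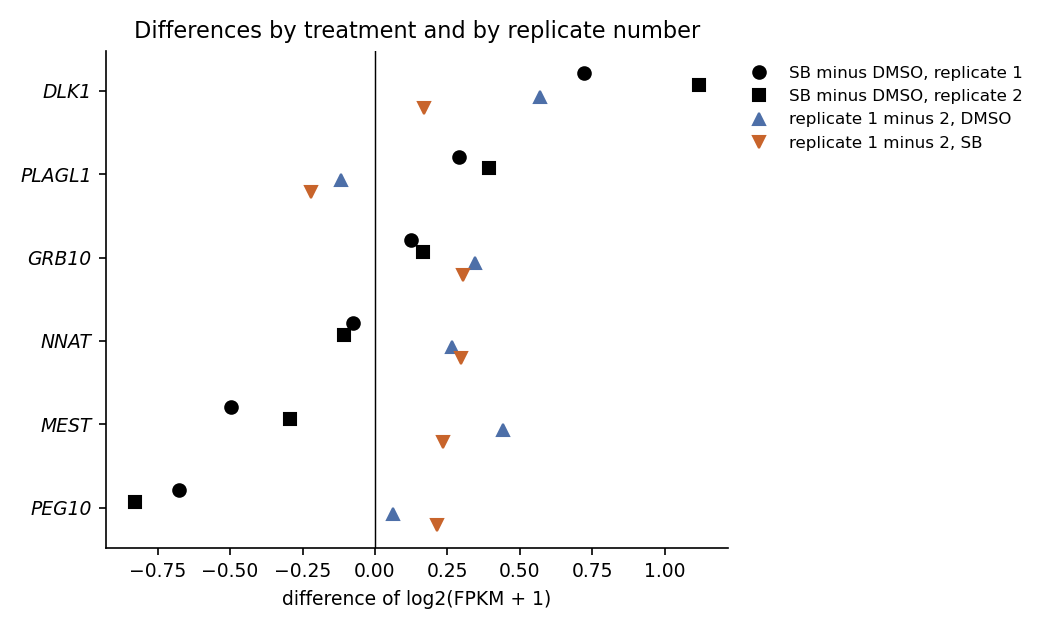
Differences of log2(FPKM + 1) on the horizontal axis for the 6 tested genes, as SB minus DMSO within each replicate number (black) and as replicate 1 minus replicate 2 within DMSO (blue) and within SB (orange). For DLK1, PEG10 and PLAGL1 both treatment differences exceed both replicate differences in size, and for GRB10 and NNAT both replicate differences exceed both treatment differences.

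Of the 6 genes tested, 0 passed an adjusted p of 0.05 in limma, where 0.134% of the 14909 genes tested did. At an unadjusted p under 0.05 there were 2 of 6, DLK1 and PEG10, against 9.96% of all genes. The values of the groups did not overlap for 4 of 6, with SB higher for DLK1 and PLAGL1 and lower for PEG10 and MEST, against 37.5% of all genes. The median log2 fold change of the 6 was 0.03, and that of all genes tested was 0.04. The 6 paternally expressed or tissue-dependent genes that were tested did not share a direction, with 3 above 0 and 3 below.

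MEG3, a noncoding RNA of the DLK1 domain made from the maternal copy, was listed at 0.289 and 0.292 FPKM with DMSO and at 0.0198 and 0.468 FPKM with SB (ENSG00000214548.14, chr14:100779410-100861031, plus strand). The SB libraries were the lowest and the highest of the 4. H19, the maternal noncoding RNA beside IGF2, was listed at 0.0701 and 0.0356 FPKM with DMSO and at 0 and 0.0749 FPKM with SB (ENSG00000130600.17, chr11:1995163-2001470, minus strand). PEG3, a zinc finger gene, was listed at 0 in all 4 libraries (ENSG00000198300.12, chr19:56810083-56840728, minus strand). An exact 0 in such a table can be a failed estimate, and ZIM2, which overlaps PEG3, was at 0.0229 FPKM in SB replicate 2 and at 0 elsewhere. These 3 genes were below the level needed for testing. The 4 rows of microRNAs hosted by H19, MEG3 and MEST (MIR675, MIR770, MIR2392 and MIR335) were at 0 in all libraries. The library kit is not one for small RNA, so this says nothing of the mature microRNAs.

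Neighbours in the same clusters were read next. IGF2, the fetal growth factor that lies beside H19, was at 341 and 256 FPKM with DMSO and at 356 and 249 FPKM with SB, while H19 stayed under 0.1 FPKM. The limma log2 fold change of IGF2 was 0.01 (adjusted p = 0.998). In the DLK1 domain, DIO3, which inactivates thyroid hormone and is expressed from the same parental copy as DLK1, was at 5.57 and 4.08 FPKM with DMSO and at 2.41 and 1.38 FPKM with SB. Its log2 fold change was -1.02, the opposite sign to DLK1, with a limma p of 0.0138 and an adjusted p of 0.321. The maternal MEG9 was at 2.83, 1.30, 1.79 and 1.18 FPKM, with the groups overlapping. RTL1 reached at most 0.148 FPKM and MEG8 at most 0.126 FPKM.

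Next to PEG10, SGCE, which is made from the adjoining promoter in the other direction, was at 13.8, 14.9, 12.4 and 13.5 FPKM, a log2 fold change of -0.14 (limma adjusted p = 0.886) against -0.75 for PEG10. TFPI2, a protease inhibitor farther along the cluster that is described as maternally expressed in placenta, was at 16.3 and 16.6 FPKM with DMSO and at 4.99 and 4.43 FPKM with SB. Its log2 fold change was -1.61, with a limma p of 0.000223 and an adjusted p of 0.0753. The differences between neighbours were not tested. The grouping of genes into domains was written after the values were seen.

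**Figure D3:**
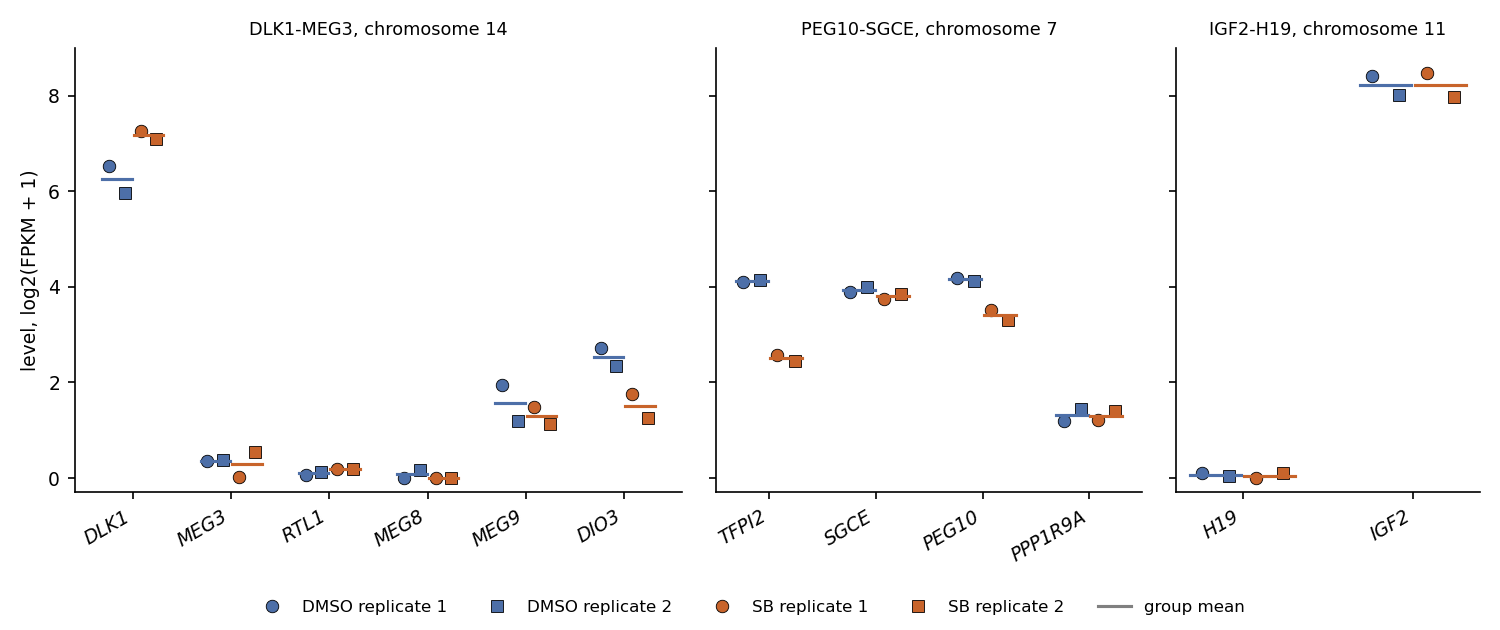
Levels, as log2(FPKM + 1) on the vertical axis, of the genes of 3 imprinted domains in order along each chromosome, with DMSO in blue, SB in orange, replicate 1 as circles, replicate 2 as squares and group means as lines. DLK1 is higher and DIO3 lower in both SB libraries, PEG10 and TFPI2 are lower in both, SGCE is lower by less, and IGF2 is high where H19 is near 0.

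A wider list held 50 other imprinted genes, of which 49 were in the table, 30 were tested and 19 stayed under 1 FPKM in all libraries. In limma, 0 of the 30 passed an adjusted p of 0.05, and 3 had an unadjusted p under 0.05 (TFPI2, DIO3 and IGF2R), a share near the 9.96% of all genes. IGF2R, the receptor that clears IGF2, was at 17.6 and 18.7 FPKM with DMSO and at 23.9 and 25.9 FPKM with SB, a log2 fold change of 0.43 (limma adjusted p = 0.485). The next by p were NAP1L5 (log2 fold change 0.37), SNURF (0.34) and SNRPN (-0.29). The groups did not overlap for 9 of the 30, 4 with SB higher and 5 with SB lower, against 37.5% of all genes, and the median log2 fold change was 0.02.

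**Figure D4:**
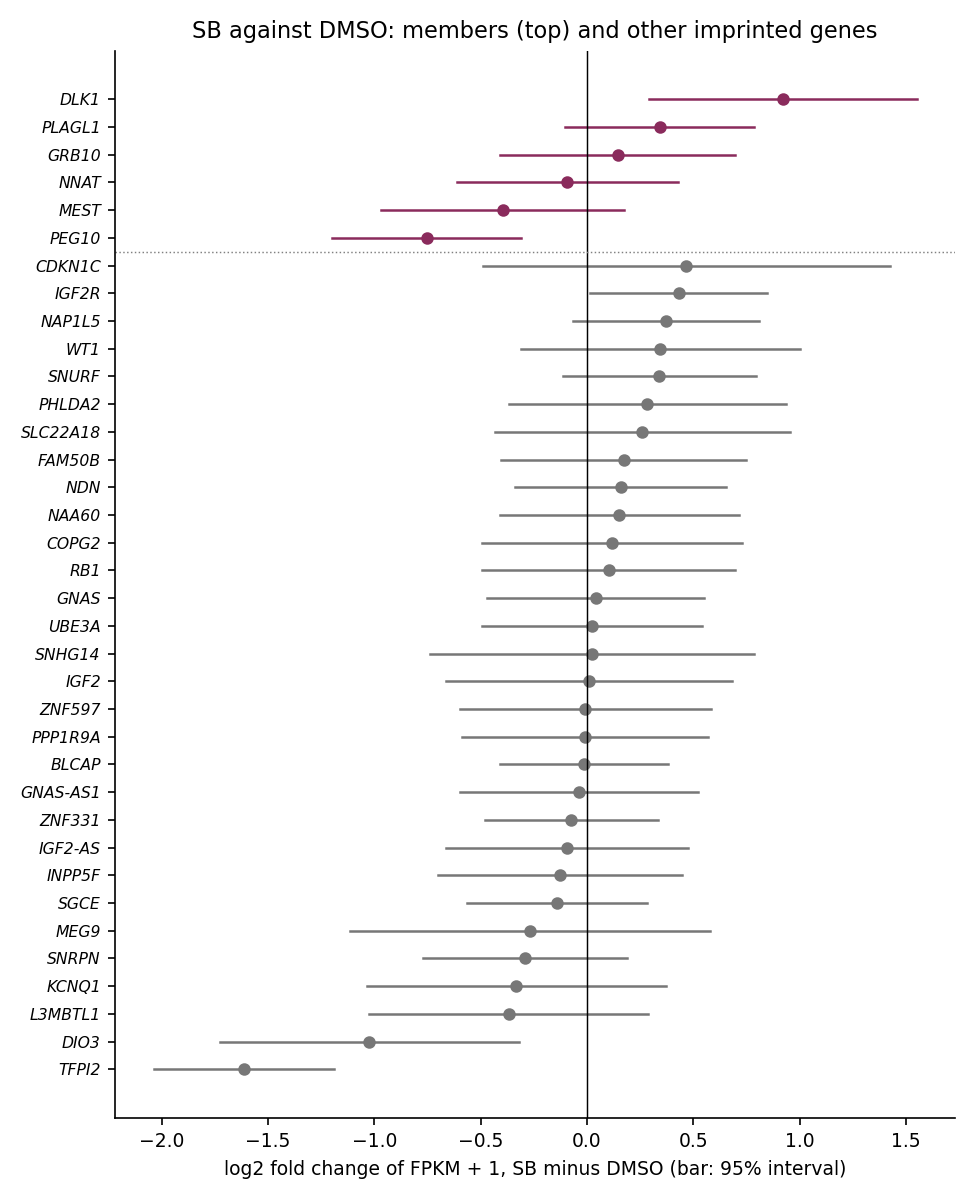
The log2 fold change of FPKM + 1, SB minus DMSO, on the horizontal axis with its 95% interval from limma as a bar, for the 6 tested genes described here (purple, top) and 30 other imprinted genes (grey). The intervals of DLK1, PEG10, IGF2R, DIO3 and TFPI2 exclude 0 before adjustment, and no adjusted p is under 0.05.

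Of 14 genes for factors that act on imprinted regions, among them enzymes that add or remove methylation, 10 were tested. In limma, 0 of the 10 passed the adjusted threshold or an unadjusted p of 0.05. In 5 of the 10 both SB libraries were higher, and in 0 both were lower, against 21.5% and 16% of all genes. The maintenance methyltransferase DNMT1 was at 53.2 and 50.6 FPKM with DMSO and at 63.1 and 57.1 FPKM with SB (log2 fold change 0.21). DNMT3B, a de novo methyltransferase, had a log2 fold change of 0.30, the insulator protein gene CTCF 0.22, and the demethylation enzymes TET1, TET2 and TET3 had -0.25, 0.21 and 0.24. ZFP57 and DNMT3L were listed at 0 in all libraries. The median of the 10 was 0.21, and it was 0.12 without SB replicate 1, 0.14 without DMSO replicate 2 and 0.10 with no filter on low values (14 genes).

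Markers of other cell types differed between the same libraries. Hepatic and endodermal markers summed to 284 and 321 FPKM with DMSO and to 29.8 and 32.8 FPKM with SB. Of the 8 tested, 4 were called, all lower with SB (APOA1, AFP, TTR and APOA2), against 0.134% of all genes. Both SB libraries were lower for 7 of the 8, against 16% of all genes. With any 1 of the 4 libraries left out, 0 of the marker genes passed the threshold. AFP, the fetal serum protein, fell by 3.55 on the log2 scale (limma adjusted p = 0.0232), while ALB was at most 0.481 FPKM. DLK1 was higher in the SB libraries, and the part of hepatic cells in its values was not tested. Mesenchymal markers summed to 368 and 321 FPKM with DMSO and to 179 and 175 FPKM with SB, with 0 of 7 called. Muscle and cardiac markers summed to 76.2 and 83.4 FPKM with DMSO and to 38.8 and 41.9 FPKM with SB. Of these, 1 of 4 was called (ACTC1, lower with SB), against 0.134% of all genes. Both SB libraries were lower for 6 of the 7 mesenchymal and 4 of the 4 muscle and cardiac markers tested, against 16% of all genes. PEG10, MEST, TFPI2 and DIO3 were lower in those same SB libraries, and the part of these cell types in the values of the imprinted genes was not tested.

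Hematopoietic markers summed to 392 and 336 FPKM with DMSO and to 636 and 535 FPKM with SB, with 0 of 7 called and both SB libraries higher for 7 of 7, against 21.5% of all genes. Erythroid markers summed to 876 and 891 FPKM with DMSO and to 556 and 607 FPKM with SB (0 of 6 called). Both SB libraries were lower for 4 of the 6, against 16% of all genes. HBE1 made up most of each sum. ALAS2 and HBZ had log2 fold changes of -2.06 and -2.12 (limma adjusted p of 0.0605 and 0.0910), while for HBG1 and KLF1 the groups overlapped. Endothelial markers summed to 1509 and 1331 FPKM with DMSO and to 1354 and 1226 FPKM with SB (0 of 8 called). Pluripotency markers summed to 70.6 and 90.6 FPKM with DMSO and to 93.8 and 115 FPKM with SB (0 of 4 called). Most of each sum was LIN28A, at 42.6 and 51.0 FPKM with DMSO and at 65.2 and 76.0 FPKM with SB. POU5F1 was higher in both SB libraries but reached at most 1.60 FPKM, and TDGF1 went the other way (log2 fold change -0.70). Of the 6 markers, 2 stayed under 1 FPKM in all libraries. Trophoblast markers, of which 2 of 8 were tested and CGB5 was at 0, summed to 55.8 and 36.3 FPKM with DMSO and to 54.2 and 34.6 FPKM with SB. GATA3 alone gave most of these sums, at 51.6 and 31.7 FPKM with DMSO and at 49.5 and 30.2 FPKM with SB. The 6 trophoblast markers not tested stayed under 1 FPKM in all libraries. Neural markers summed to 29.6 and 24.7 FPKM with DMSO and to 18.5 and 16.2 FPKM with SB, with NES as the 1 gene tested. The part of these cells in the values of DLK1 and PLAGL1 was not tested either.

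For the 3 genes with the widest range, the tested genes with the nearest profile over the 4 libraries were found by the root mean square difference of log2(FPKM + 1) after centring each gene. For DLK1 they were TRGV5P (0.0538), ZRSR1 (0.0577) and PCSK6 (0.0675). For PEG10 they were SHD (0.0225), AF111169.4 (0.0230) and LRRN4 (0.0303). For MEST they were KLHL29 (0.0164), POLD4 (0.0201) and GLI3 (0.0234). Several of these genes were low, with at most 1.23 FPKM for ZRSR1, 1.89 FPKM for KLHL29 and 2.03 FPKM for SHD. Because 1 is added to each value, a near profile of a low gene does not mean a like ratio of FPKM. A likeness over 4 libraries is a description only.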

How the data were processed

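RNA was extracted with Trizol and libraries were made with a TruSeq kit, and a service company did the sequencing. The authors deposited FPKM values in 1 table, with 1 column for each library. The submitters' processing notes name BWA, Bowtie, RSEM and hg19, with no role or order. The loci nevertheless lie on GRCh38: 95.5% of rows had the same identifier and version in GENCODE 29, and 99.8% of these had the same position. Positions here are thus those of GRCh38, with the first base as 1. Strand use is not given in the sources used here.

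The total number of fragments is unknown, so counting error cannot be given. Relative depth, estimated from the commonest ratio of low values in single-exon genes, was 75.7% to 100% of the deepest library. Between 7.88% and 8.68% of those genes lay near that ratio, so the estimate is rough.

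Values were transformed to log2(FPKM + 1), which understates changes of low genes. Genes with a mean of at least 1 FPKM in at least 1 group (14909) were tested with limma 3.58.1 in R 4.3.3 (empirical Bayes with a trend, with the group as the only term and the 4 libraries together). Benjamini-Hochberg adjustment of the two-sided p-values ran over all tested genes, and genes under 0.05 were called. The fit was checked on simulated data.

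The 9 genes and all lists were chosen with earlier results of these data known. Named genes are the 9, up to 6 of each list of imprinted genes or factors and up to 3 of each marker list by p, the 3 nearest genes for 3 of the 9, and neighbours of the 9. PECAM1, PTPRC, ALB, NES, CGB5, APOA2, HBE1, HBG1, KLF1, ZFP57 and DNMT3L were named outside this rule after their values were seen. The alternatives tried were a block for the replicate number, other filters, a pseudocount of 0.1, quantile and upper-quartile scaling, limma without the trend, the sum of all rows of a symbol, and leaving out 1 library at a time.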

Additional observations from a re-analysis of the deposited data

How the results depend on the processing

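There were 2 libraries a group. The labels share the numbers 1 and 2 between groups, but 2 pairs cannot establish pairing. Deviations from the group means of DMSO replicate 1 and SB replicate 1 correlated at 0.528 across 14909 genes. With the replicate number as a block, calls went from 20 to 1564 of the 14909 genes tested. For the 6 imprinted genes, calls went from 0 to 4. The limma adjusted p with the block was 0.0181 for DLK1, 0.0191 for PEG10, 0.0477 for MEST and 0.0471 for PLAGL1. Calls also went from 0 to 4 of the 30 other imprinted genes (TFPI2, DIO3, SNRPN and IGF2R) and from 5 to 26 of the 47 markers tested.

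Without a filter on low values, calls were 2156 of 58365 genes and 1 of the 9 (DLK1, limma adjusted p = 0.0163). They were 2 of the 49 other imprinted genes and 22 of 69 markers. In that fit limma warned that most residual variances were exactly 0 and that its estimates are unreliable. After this was seen, the fit was repeated without the genes at 0 in all libraries, and it gave 0 calls over all genes (2739 at an unadjusted p under 0.05) and 0 markers. Quantile normalization gave 31 calls over all genes. With each library left out in turn, calls ranged from 0 (without DMSO replicate 1) to 14 over all genes and were 0 for the markers without any 1 of the 4 libraries. The median of the other imprinted genes was -0.0238 with upper-quartile scaling, and between -0.0342 (without SB replicate 2) and 0.0278 with a library left out.

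Over 13 alternatives, the log2 fold change of DLK1 ranged from 0.64 to 1.2045, of PEG10 from -0.86 to -0.65, of MEST from -0.62 to -0.18 and of PLAGL1 from 0.23 to 0.45. The block, the filters, the fit without the trend and the sum of rows (1 row for each symbol) could not change these fold changes. GRB10 changed sign without DMSO replicate 2 (-0.0276) and without SB replicate 1 (-0.0070), with 0.317 as its highest value without a library. NNAT changed sign without DMSO replicate 1 (0.0423) and without SB replicate 2 (0.0572), with -0.2396 as its lowest. The cause of these changes was not tested.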
